A study of Mus musculus with 55 samples.

Results

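Liver blood cells from C57B/L6 mice were sorted, with or without a preceding partial hepatectomy (PH, surgical removal of part of the organ), and their total RNA was sequenced. The members are the 4 libraries titled blood, 2 from normal liver (normal 1 and 2) and 2 from liver after PH (PH 1 and 2), of 55 libraries from 10 sorted populations in all. The normal animals had no stated surgery, the strain is the only genotype given, and the labels name no age, sex, time after surgery, batch or antibody used for the sort. The labels do not say whether libraries 1 and 2 of a group came from separate animals, so the p-values below measure only the spread between these libraries, which may be technical. Values are FPKM, fragments scaled to transcript length and library size, and pairs of values are always in the order of library 1 and library 2. A change is the mean log2(FPKM + 1) after PH minus that in normal liver, with its standard error (SE), which understates the change of low genes.

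Blood passing through the liver carries T cells, B cells, natural killer (NK) cells, neutrophils, monocytes and dendritic cells, and the liver also holds its own lymphocytes and NK cells in the sinusoids. Kupffer cells are the resident macrophages of the sinusoid wall, where they take up particles, bacteria and old red cells, next to the fenestrated sinusoidal endothelium. After PH the remaining liver grows back, and circulating myeloid cells enter it while macrophages and endothelial cells take part in the response.

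The labels were checked against marker genes before any comparison. In normal liver the libraries carried the RNA of blood leukocytes: Ptprc, the CD45 antigen of all leukocytes, stood at 579 and 648 FPKM, Cd3e of the T cell receptor complex at 294 and 327, Ncr1 of NK cells at 195 and 212, the neutrophil granule gene Ngp at 213 and 277 and the Kupffer scavenger receptor Marco at 5.49 and 13. After PH the same label covered a different content, with Ptprc at 55.9 and 116, Cd3e at 4.1 and 8.68, Ncr1 at 2.31 and 4.66, Ngp at 1.68 and 0.642 and Marco at 2823 and 4759 FPKM. Thus the PH libraries go against a plain blood label, and their raised marker genes are, as given below, those of Kupffer cells and of sinusoidal endothelium. Marco also rose within the Kupffer cell sort of the series, from a mean of 338 FPKM in normal liver to 7180 after PH. Its rise alone is therefore no measure of Kupffer content. Each marker was separated between the groups in all 4 libraries, and the changes were -2.91 ± 0.37 for Ptprc (adjusted p = 0.00326), -5.47 ± 0.33 for Cd3e (0.00086), -5.56 ± 0.29 for Ncr1 (0.000772), -6.86 ± 0.30 for Ngp (0.000766) and 8.59 ± 0.46 for Marco (0.000786). Ptprc lost its call without either normal library, and the other 4 genes kept theirs without any single library.

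The libraries also differ within a group. Over 8492 tested genes with under 10 FPKM in both hepatocyte groups, the correlation of log2(FPKM + 1) was 0.983 between normal 1 and 2, 0.950 between PH 1 and 2, and 0.518 to 0.610 between a normal and a PH library. PH 1 held more endothelial and neutrophil transcripts and PH 2 more Kupffer and lymphoid transcripts, so the results below are given by library. Other sorts of the series, as labelled, serve for reference: Kupffer cells (KC), sinusoidal endothelial cells (LSEC), endothelial cells (EC), hepatic stellate cells (HSC) and biliary epithelial cells (BEC). The FPKM sums were 773080 to 804558, which is no measure of read depth, and the depth behind each value is unknown. Hepatocyte genes cannot be judged, since 9 of the 12 listed hepatocyte genes stood at exactly 0 in all 4 libraries and the other 3 (Cyp2e1, Cps1 and Tat) were above 0 only in PH 1.

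The 5 markers lie apart in the mm9 genome. Marco spans chr1:122371115-122401661 and Ptprc chr1:139959436-140071882, both on the minus strand, Ncr1 chr7:4289326-4296766 (plus), and Cd3e chr9:44806826-44817673 (minus) and Ngp chr9:110322312-110325516 (plus). The 250 bases upstream of the transcription start are shown for Cd3e, Ncr1, Ngp and Marco, to set the markers of T cells, NK cells, neutrophils and Kupffer cells side by side, from RefSeq on GRCm38.p6, a later build than that of the expression table. Capitals mark matches, on either strand, to GAGGAA, the core bound by the myeloid factor Spi1 (PU.1) and other ETS proteins, and to TGTGGT, the core bound by RUNX factors. The Cd3e window is chr9:45009612-45009861 (minus strand), that of Ncr1 is chr7:4337465-4337714 (plus), that of Ngp is chr9:110419558-110419807 (plus) and that of Marco is chr1:120505025-120505274 (minus).

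Cd3e: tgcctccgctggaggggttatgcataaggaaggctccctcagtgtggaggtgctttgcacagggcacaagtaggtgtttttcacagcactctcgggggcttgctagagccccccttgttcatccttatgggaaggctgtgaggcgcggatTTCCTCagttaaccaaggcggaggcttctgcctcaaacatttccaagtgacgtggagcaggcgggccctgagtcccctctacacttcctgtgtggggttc

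Ncr1: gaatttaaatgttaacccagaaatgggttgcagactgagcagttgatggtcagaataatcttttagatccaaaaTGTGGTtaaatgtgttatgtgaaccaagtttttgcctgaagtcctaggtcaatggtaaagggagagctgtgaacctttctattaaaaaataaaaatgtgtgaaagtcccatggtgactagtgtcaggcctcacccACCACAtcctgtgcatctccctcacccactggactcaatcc

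Ngp: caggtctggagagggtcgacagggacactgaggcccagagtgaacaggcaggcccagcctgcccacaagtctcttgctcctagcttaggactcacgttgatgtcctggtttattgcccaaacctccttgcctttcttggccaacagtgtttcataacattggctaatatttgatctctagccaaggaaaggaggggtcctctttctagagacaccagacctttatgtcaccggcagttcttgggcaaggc

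Marco: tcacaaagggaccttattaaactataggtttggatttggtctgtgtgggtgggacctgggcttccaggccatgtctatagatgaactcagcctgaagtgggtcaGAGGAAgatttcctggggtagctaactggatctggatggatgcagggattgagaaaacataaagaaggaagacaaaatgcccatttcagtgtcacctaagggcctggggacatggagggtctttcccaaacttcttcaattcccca

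The Marco and Cd3e windows each hold 1 match to GAGGAA and none to TGTGGT, the Ncr1 window holds 2 matches to TGTGGT and none to GAGGAA, and the Ngp window holds neither. Among 27025 genes with a promoter entry, 23.1% of windows of this length hold GAGGAA and 14.2% hold TGTGGT. The share with GAGGAA was 60% (12 of 20 matched genes) in the neutrophil list, 37.5% (6 of 16) in the Kupffer list and 26.3% (5 of 19) in the NK list, and the share with TGTGGT was 10% (2 of 20), 12.5% (2 of 16) and 47.4% (9 of 19), as a description with no test. The NK list holds several Klra genes, near-identical copies, so its windows may not be separate instances. For the T cell, B cell, macrophage and sinusoidal endothelium lists the count is void, since under 80% of their members had a matched window. A match is only a run of letters and shows no binding.

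Across the genome the blood sort changed widely after PH. Of 12819 genes tested, 8199 (64%) differed at an adjusted p under 0.05 by limma, 3109 (24.3%) higher and 5090 (39.7%) lower. Among the 8492 genes low in hepatocytes the shares were 66.7% in either direction, 23.7% higher (2015 genes) and 42.9% lower (3645 genes). The counts of called list members below are to be read against these shares. The median change of all tested genes was -0.31, and -0.14 after quantile normalization and -0.11 after upper-quartile scaling, and gene changes are best read against that shift. Without normal 1 the count was 1262 and without normal 2 it was 1829, against 8191 without PH 1 and 8683 without PH 2, and 1211 of the 8199 genes were called whichever library was left out. With 2 libraries on each side an exact permutation test of a single gene cannot give a two-sided p below 0.333, so the calls rest on the spread shared across genes. FPKM are shares of a library, and Kupffer, macrophage and endothelial sums rose in the libraries in which lymphoid sums fell; the part of the one in the other was not tested.

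T cell genes fell together. Of 25 listed T cell genes, all tested, 24 were lower and 0 higher, with a median change of -4.43. Summed over the list the level was 2867 and 3439 FPKM in the normal libraries and 90.5 and 169 in the PH libraries, 4.12% of the normal mean. The fall covered the receptor complex (Cd3g from 459 and 503 to 9.25 and 19.1 FPKM, change -5.07 ± 0.35), the signalling kinase Lck (433 and 555 to 9.32 and 14.9) and the coreceptors of helper and killer cells. Cd4 went from 104 and 107 to 5.78 and 12.7 FPKM and Cd8b1 from 123 and 109.8 to 3.05 and 4.31, with no overlap of groups. Lef1 and Tcf7, transcription factors of naive T cells, went from 57.7 and 90.6 to 0.731 and 2.09 and from 48.95 and 83.8 to 3.09 and 5.78 FPKM. The exception was Thy1, which had 23.2 and 22.2 FPKM before and 10.7 and 22.4 after PH (change -0.52 ± 0.36, adjusted p = 0.253), a gene that stellate and other stromal cells also carry. Foxp3 of regulatory T cells fell least among the called genes, from 8.08 and 9.24 to 4.76 and 5.1 FPKM (change -0.70 ± 0.18), and KC libraries held 4.05 (normal) and 6.79 (PH) on average. In bulk RNA, fewer cells of a type and less RNA per cell cannot be told apart, here and in every list below. Without either normal library 17 T cell genes were lower, and without PH 2 all 25 were.

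NK and cytotoxic genes fell as well. All 22 genes of the NK list were lower, with a median change of -4.91, and their sum went from 6802 and 7365 FPKM to 112 and 224, 2.37% of normal. The most abundant members in normal liver were Ccl5, a chemokine of cytotoxic cells (1522 and 1423 FPKM to 32.9 and 51.1), the granule membrane gene Nkg7 (1266 and 1394 to 10.8 and 27.4, change -6.18 ± 0.44), the granzyme Gzma (940.0 and 1004 to 13.2 and 26.4) and the interleukin receptor chain Il2rb (764 and 928 to 14.4 and 36.99). The groups did not overlap for any of these. The master regulators Tbx21 and Eomes followed, with Tbx21 at 103 and 102 then 2.3 and 3.89 FPKM and Eomes at 6.54 and 10.9 then 0.175 and 0.289. In the cytotoxic granule list 11 of 13 genes were lower and 1 higher, with perforin (Prf1) at 99.7 and 129 then 1.7 and 3.4 and the death ligand Fasl at 167 and 277 then 1.42 and 3.14 FPKM. The gene that moved against this list was Lamp1, a lysosomal membrane protein of many cells, from 28.1 and 79.4 to 771 and 892 FPKM (change 4.10 ± 0.50). The granule proteoglycan Srgn, shared by most blood cells, stood at 736 and 790.1 and 753 and 541 FPKM (adjusted p = 0.379). The NK list kept 19 to 22 lower genes in each fit that left out a library, and the granule list 7 to 11. The Klra genes are near-identical copies whose reads the counting may have split, so single members are uncertain.

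B cell, plasma cell and most dendritic cell genes were lower as well. In the B cell list 18 of 19 tested genes were lower (median change -3.57), and the sum fell from 1885 and 1301 FPKM to 127 and 224, 11% of normal. Cd79b of the B cell receptor had 288 and 206 then 11.2 and 22.2 FPKM (change -3.86 ± 0.37). The scaffold gene Bank1 was not called (56.4 and 44.1 then 16.8 and 38.9 FPKM, adjusted p = 0.109), and KC libraries held 69.4 and 57.6 of it on average. All 5 tested plasma cell genes were lower, led by the immunoglobulin joining chain Jchain (679.6 and 414 then 12.2 and 6.8 FPKM). In the dendritic cell list 12 of 18 genes were lower and 2 higher (median change -2.60). Siglech, a surface lectin of plasmacytoid dendritic cells, went from 778 and 437 to 9.93 and 22.2 FPKM and the conventional dendritic cell gene Cd209a from 227 and 134 to 5.71 and 7.25. The higher members were Fscn1 (9.12 and 8.17 then 94.1 and 36.5), an actin bundler that endothelium also uses, and the transcription factor Batf3 (9.0 and 7.97 then 32.04 and 59.6), which KC libraries held at 49.1 and 82.3. Basophil and mast cell genes were low throughout, and 8 of 9 tested were lower, such as Cma1 at 23.7 and 16.7 then 0.0437 and 0.0643 FPKM. Of the 12 listed genes found, 6 stood at exactly 0 in each PH library. Members such as Cma1 passed the filter of 1 FPKM in 2 libraries only through the normal group. The direction of such calls was therefore largely fixed by the filter, and the count is no separate evidence of a fall. Without normal 1 only 2 B cell, 1 plasma cell and 4 dendritic cell genes were called lower, and without normal 2 the counts were 10, 4 and 8, while the B cell median stayed between -3.99 and -3.13 over the 4 fits that each left out a library.

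What was left of the lymphoid signal differed by lineage and library. To set aside genes that KC libraries also carry, members under 1 FPKM in every KC library were taken, a choice made after seeing the data. In these genes the median level was 1.91% of the normal mean in PH 1 and 3.70% in PH 2 for 18 T cell genes, 1.49% and 2.97% for 19 NK genes, and 1.75% and 7.82% for 12 B cell genes. Of them, 17, 19 and 12 were lower. PH 2 thus held more of each lymphoid lineage than PH 1. Part of the residue was above the PH KC sort: 18 of 25 T cell genes, 16 of 22 NK genes and 9 of 19 B cell genes were higher in PH blood than in PH KC, and 1, 0 and 1 were lower, where 18.9% of all 13198 genes tested were higher.

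**Figure D1:**
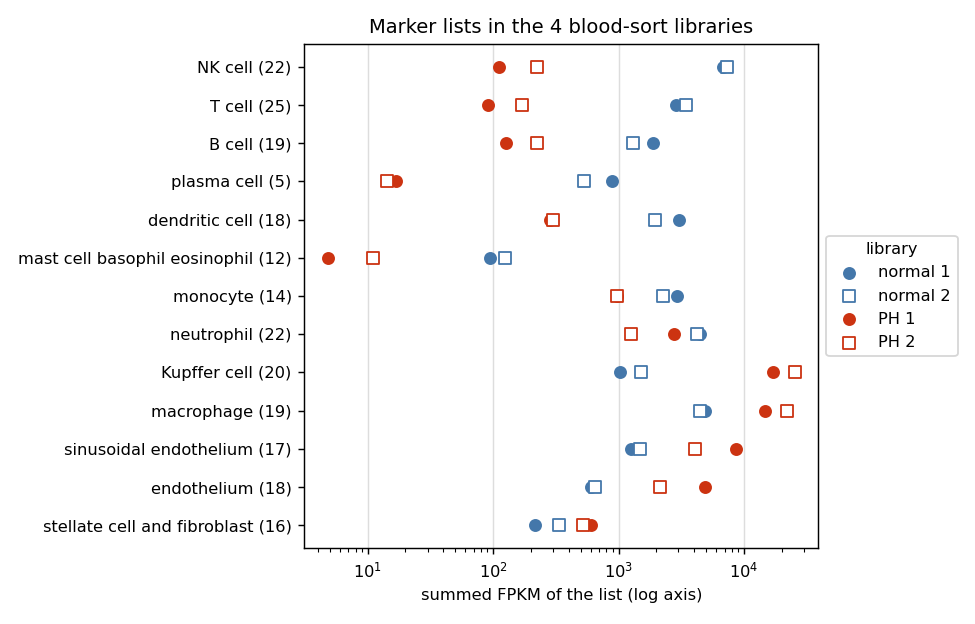
Summed FPKM of 13 marker lists (x axis, log scale; number of listed genes found in brackets) in the 4 blood-sort libraries, normal in blue and PH in red, library 1 as circles and library 2 as open squares. NK, T, B and plasma cell sums are lower in both PH libraries than in both normal ones, and Kupffer, macrophage and endothelial sums are higher.

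**Figure D2:**
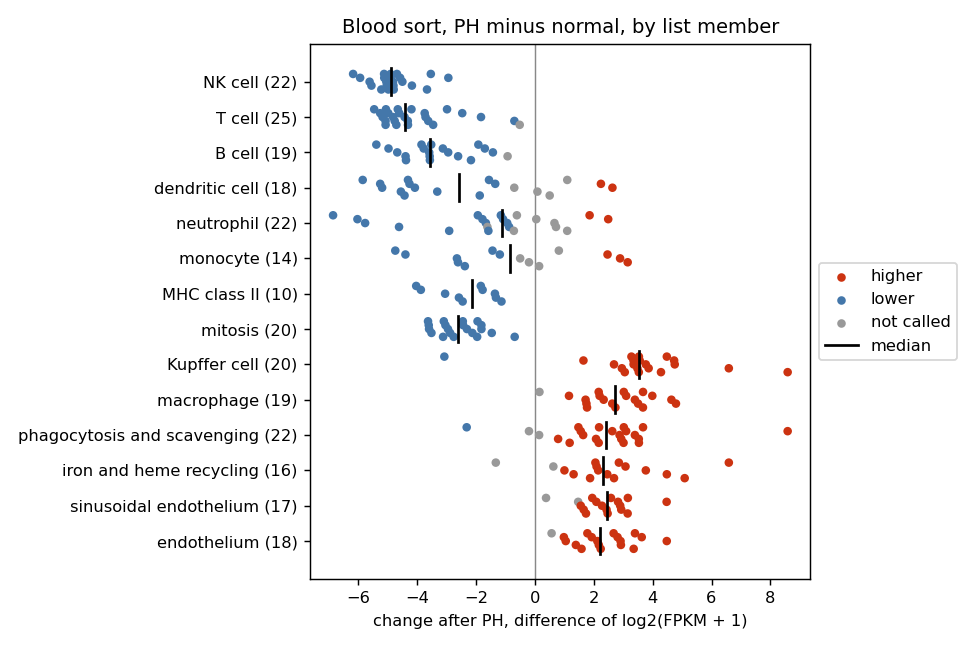
Change after PH of each tested member of 14 lists (x axis, difference of log2(FPKM + 1)), coloured by the limma call at an adjusted p under 0.05, with the list median as a bar. NK members lie between -6.18 and -2.95, all lower, and all Kupffer members but 1 lie above 0.

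The neutrophil list held genes that fell to near 0 and genes that did not pass the test. Of 22 members, 13 were lower, 2 higher and 7 not called, with a median change of -1.12, against a sum of 4466 and 4193 FPKM in normal liver and 2781 and 1256 after PH. All 22 are low in hepatocytes, and of all such tested genes 42.9% were lower and 23.7% higher. The granule protein genes with the largest falls were Ngp, as given above, the cathelicidin Camp (74.4 and 76.5 to 0.359 and 0 FPKM), lactoferrin Ltf (61.3 and 77.7 to 0.555 and 0.0525), myeloperoxidase Mpo (21.1 and 32.5 to 0.043 and 0.171) and elastase Elane (6.8 and 8.98 to 0.0425 and 0.311). Their changes ran from -6.86 for Ngp to -2.92 for Elane, and all 5 kept their call without any single library. Other genes of neutrophil development and maturity fell less from low levels: the granule protease Prtn3 had 3.93 and 3.12 then 0.853 and 1.19 FPKM (change -1.16 ± 0.21), the transcription factor Cebpe 3.07 and 3.05 then 0.721 and 1.83 (-0.88 ± 0.29) and the surface antigen Ly6g 6.17 and 5.92 then 2.19 and 0.536 (-1.67 ± 0.39). The abundant cytosolic genes were partly retained. S100a8 and S100a9, the calgranulin pair that fills the neutrophil cytosol, had 1909 and 1568 then 909 and 365 FPKM and 1355 and 1182 then 1238 and 477. S100a8 was lower by 1.58 (adjusted p = 0.0371), and S100a9 was not called (-0.72 ± 0.49, adjusted p = 0.248), with the PH 1 value inside the normal range. The resistin-like gene Retnlg had 435 and 546 then 177 and 111 FPKM (change -1.79 ± 0.29, adjusted p = 0.00594). The chemokine receptor Cxcr2 (31.2 and 25.3 then 21.9 and 14.7), the collagenase Mmp8 (40.6 and 53.3 then 25.5 and 8.04) and the decoy receptor Il1r2 (18.7 and 24.6 then 29.3 and 16.7) were not called. The growth factor receptor Csf3r was lower, at 70.1 and 66.02 then 36.6 and 33.2 FPKM.

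Levels in the KC sort differed between these genes. PH KC libraries averaged 34.2 FPKM of S100a8, 4.5 of Retnlg, 0.467 of Cxcr2 and 1.0 of Il1r2, below both PH blood libraries in each case. Csf3r averaged 28.3 in normal KC and 14.1 in PH KC, near its level in PH blood, and the part of KC in it was not tested. The higher members, the formyl peptide receptors Fpr1 (23.2 and 26.96 then 81.6 and 106) and Fpr2 (3.3 and 3.92 then 27.01 and 22.8), did stand high in PH KC, at 189.6 and 35.5. Without normal 1 or without normal 2, 6 neutrophil genes were called lower. S100a8 and Retnlg lost their call in both of these fits. PH 1 had more S100a8, S100a9 and Retnlg than PH 2, and less of the T and NK cell sums.

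Monocyte genes moved in both directions. Of 14 tested members, 7 were lower, 3 higher and 4 not called (median change -0.85). These counts are not far from the shares of all tested genes, 39.7% lower and 24.3% higher. The monocyte sum went from 2921 and 2243 FPKM to 978 and 979, 37.9% of normal. Lower members included the blood monocyte surface gene Ly6c2, which went from 902 and 594 to 25.8 and 26.7 FPKM (change -4.75 ± 0.24), and the chemokine receptor Ccr2, from 226 and 208 to 31.3 and 36.2. Both kept their call without any single library. Others did not pass the test: Chil3, a chitinase-like protein, had 79.2 and 64.7 then 209 and 76.1 FPKM, the coagulation factor gene F13a1 59.1 and 39.5 then 46.8 and 37.3, and the integrin Itgam (CD11b) 73.5 and 76.4 then 75.2 and 91.02. Chil3 and F13a1 averaged only 5.92 and 1.93 FPKM in PH KC. The 3 higher members were the receptors Treml4 (24.3 and 28.1 then 179.9 and 223) and Cd300e (11.5 and 14.7 then 114 and 133) and the proteoglycan Vcan (1.22 and 0.467 then 8.55 and 9.41, change 2.47 ± 0.27). Treml4 and Cd300e stood at 396 and 286 in PH KC, whereas Vcan averaged 0.323 there.

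**Figure D3:**
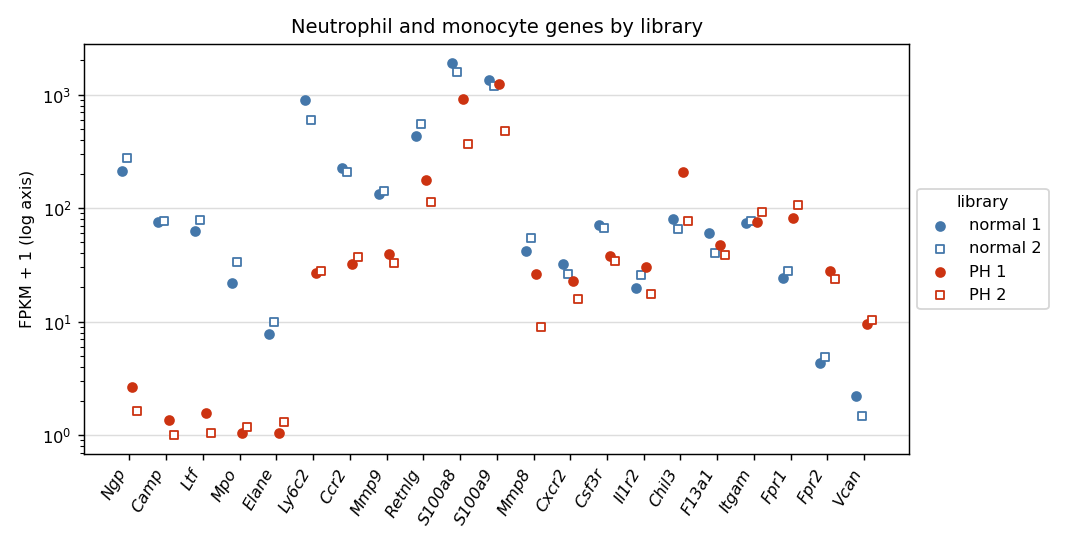
FPKM + 1 (y axis, log scale) of 21 neutrophil and monocyte genes in the 4 blood-sort libraries, normal in blue and PH in red, library 1 as circles and library 2 as open squares. Granule genes from Ngp to Elane lie at 0 to 1.68 FPKM after PH, while S100a9, Il1r2, Chil3 and F13a1 overlap or lie near their normal values.

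Kupffer genes were higher after PH. Of 20 listed genes, 19 were higher and 1 lower, with a median change of 3.53, and the sum rose from 1023 and 1512 FPKM to 17025 and 25435, 16.7 times the normal mean. Marco rose from 5.49 and 13 to 2823 and 4759 FPKM, the largest rise named by the rule for genes low in hepatocytes. The Kupffer lectin Clec4f had 163 and 272 then 1724 and 2680.2 FPKM (change 3.35 ± 0.36), the complement receptor Vsig4 90.4 and 145 then 1081 and 1645 (3.53 ± 0.34), and Timd4, a receptor for dying cells, 13.8 and 24.9 then 167 and 305. The haemoglobin scavenger receptor Cd163 went from 18.2 and 21.3 to 324 and 654 and the collectin-like Fcna from 117 and 206 to 1202 and 2112. Both PH libraries exceeded both normal ones for each of these genes. Hmox1, which breaks down heme, rose from 24.4 and 29.01 to 3077 and 2285 FPKM (change 6.59 ± 0.22) and Cd5l, a secreted macrophage protein, from 129 and 222 to 3236 and 6454, but both exceed 10 FPKM in hepatocytes, where values may be limited. The lower member was the integrin Itgad (10.1 and 8.25 to 0.0764 and 0.332 FPKM), which KC libraries hardly held (0.0176 after PH). Among the 13 members low in hepatocytes, 12 were higher. Without normal 1, 6 Kupffer genes were called higher, and 7 of the 20 calls, including Marco, Spic and Hmox1, held in all 4 fits that left out a library. The median change of the list was 3.16 to 3.90 over these fits.

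General macrophage genes were higher too. Of 19 tested, 18 were higher and 0 lower (median change 2.73), and the sum rose 3.90-fold, from 4877 and 4488 FPKM to 14664 and 21903. The complement chain C1qa had 79.3 and 99.4 then 1703 and 2925 FPKM (change 4.64 ± 0.32) and C1qb 184 and 265 then 2257 and 3533. The growth factor receptor Csf1r had 198 and 217 then 556 and 904 (1.77 ± 0.28). Lysozyme, Lyz2, shared by macrophages, monocytes and neutrophils, stood at 2674 and 2321 and 2628 and 2912 FPKM and was not called (adjusted p = 0.577). Without normal 1 the count of higher macrophage genes was 7, and without normal 2 it was 10.

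Uptake and iron genes rose with them. In the phagocytosis and scavenging list 19 of 22 genes were higher and 1 lower (median change 2.40), among them the scavenger receptor Msr1 (62.1 and 80.9 then 306 and 641 FPKM), Mertk, a receptor that clears apoptotic cells (17.1 and 21.01 then 148 and 195), and the antibody receptor Fcgr4 (17.3 and 25 then 194 and 269.8). The lower member was Itgax, the CD11c integrin of dendritic cells (63.4 and 46.7 then 8.43 and 12.04). In the iron and heme list 14 of 16 were higher and 0 lower (median change 2.30). Spic, the transcription factor of iron-recycling macrophages, had 3.92 and 5.04 then 71.7 and 74.5 FPKM, and the phagosomal metal transporter Slc11a1 30.8 and 37.2 then 197 and 317. Only 4 of the 16 iron genes are low in hepatocytes, and all 4 were higher. Without normal 1 these lists had 6 and 5 higher genes. The lists overlap with the Kupffer and macrophage lists, so they are no separate evidence.

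Levels of list members were also set against the sorts that the lists mark, which gives no fraction of cells. Kupffer list members with at least 10 FPKM in the KC sort of the same condition, 12 genes low in hepatocytes, stood at a median of 3.93% and 5.61% of normal KC in the normal blood libraries. After PH they stood at 38.8% and 63.5% of PH KC in PH 1 and PH 2. For 16 sinusoidal endothelial genes the medians were 6.87% and 8.27% of the normal LSEC sort and, after PH, 99.4% and 46.5% of the PH LSEC sort. Single members ran from 9.52% to 265% in PH 1 and from 2.24% to 129% in PH 2. The reference differed too, since the full list summed to 13872 FPKM in normal LSEC and 7569 in PH LSEC. For 18 general endothelial genes the medians were 6.78% and 6.98% of the normal EC sort and 66.6% and 26.6% of the PH EC sort. The order of the PH libraries was thus opposite, with PH 2 higher in Kupffer and PH 1 in endothelial genes.

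**Figure D4:**
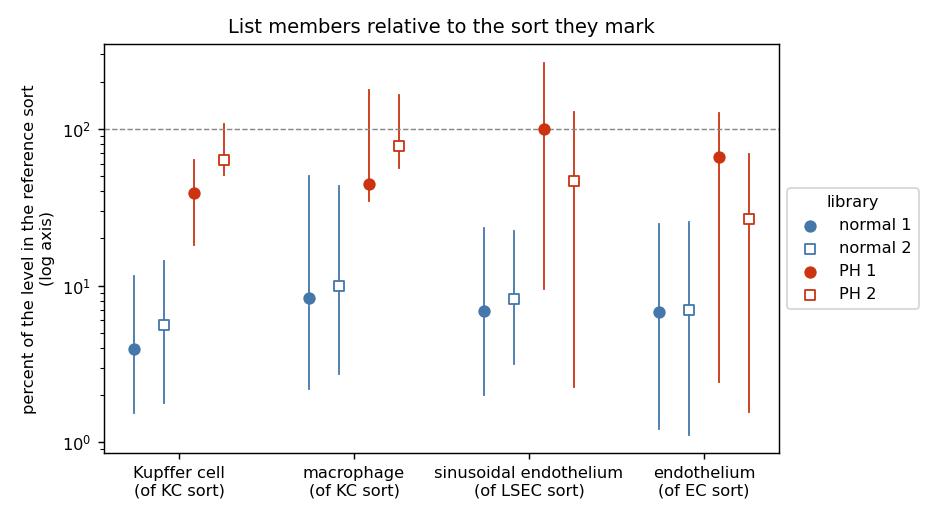
Level of list members in each blood library as a percent of their mean in the sort they mark, in the same condition (y axis, log scale; points are medians over members and lines run from the lowest to the highest member; the dashed line is 100%). Kupffer medians move from 3.93% and 5.61% in normal to 38.8% and 63.5% in PH libraries, and sinusoidal endothelial medians from 6.87% and 8.27% to 99.4% and 46.5%.

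Endothelial genes rose in the same libraries. In the sinusoidal endothelium list 15 of 17 tested genes were higher and 0 lower (median change 2.43), with a sum of 1264 and 1472 FPKM in normal liver and 8597 and 4050 after PH. The lectin Clec4g had 335 and 403 then 2930.1 and 1087 FPKM (change 2.28 ± 0.51), the hyaluronan receptor Lyve1 12.9 and 21.7 then 256 and 96.8, and Fcgr2b, the antibody receptor of this endothelium, 161 and 166 then 1201 and 650.4. In the general endothelium list 17 of 18 genes were higher and 0 lower (median change 2.20), and the junction gene Cdh5 went from 17.8 and 16.8 to 472 and 351 FPKM (4.48 ± 0.20). PH 1 exceeded PH 2 for all of these genes. Leaving out a normal library left 1 (normal 1) or 2 (normal 2) genes called higher in each of the 2 lists, with Maf and Cdh5 called in every fit, so the endothelial calls rest on both normal libraries. The medians stayed positive in every such fit, between 1.93 and 2.99 for sinusoidal and between 1.53 and 2.91 for general endothelium.

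Genes of other liver cell types stood low. The stellate and fibroblast list had 9 of 16 genes higher and 0 lower (median change 0.84), but at 1.78% and 2.14% of the PH HSC sort, and 0 genes were called higher without normal 1. Biliary members stood at 0.418% and 0.101% of the PH BEC sort. The biliary sum itself was higher after PH, at 32.9 and 103 then 161 and 490.2 FPKM, with 1 of 4 tested genes called higher and 1 lower. Most of that sum was osteopontin, Spp1 (26.04 and 92.03 then 145 and 485), which macrophages also make. Haemoglobin genes were low in every library, with Hbb-bs at 9.6 and 30.3 and 17.4 and 15.9 FPKM. Of the platelet genes, the chemokine gene Pf4 rose from 5.54 and 7.47 to 119 and 211 FPKM and stood at 152 in PH KC, while Gp9 and Gp6 were under 1 FPKM in all 4 blood libraries.

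Antigen presentation genes fell. All 10 MHC class II genes were lower (median change -2.15), with a sum of 9509 and 6615 FPKM in normal liver and 1521 and 1806 after PH. The invariant chain Cd74 had 5244 and 3544 then 699.9 and 876 FPKM and H2-Ab1 2028 and 1467 then 276 and 297 (change -2.59 ± 0.23). H2-Ob, expressed in B cells, had 77.6 and 63.9 then 2.4 and 5.92 (change -3.88 ± 0.37). In the KC sort the class II sum also differed, 8416 FPKM on average in normal and 1504 in PH libraries. For 4 of the 10 genes the change in blood differed from that in KC, 3 lower and 1 higher. That share is below the 59.9% of all 13198 genes tested whose change differed. Without normal 1, 2 genes of this list were called, and without normal 2, 5.

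Chemokine genes moved in both directions. Of 19 tested, 10 were higher and 5 lower (median change 1.70). The monocyte attractants Ccl2 (3.23 and 3.51 then 143 and 161 FPKM, change 5.13 ± 0.15) and Ccl7 (0.585 and 0.944 then 51.8 and 75.1) and the neutrophil attractant Cxcl2 (1.97 and 3.19 then 89.02 and 77.1, 4.57 ± 0.23) rose from near 0. Ccl6, a myeloid chemokine, had 403 and 521 then 1170.3 and 2152. Lymphocyte products fell, namely Ccl5, as above, and Xcl1 (190.2 and 218 then 5.26 and 11.9). In the cytokine list 4 of 19 tested genes were higher and 6 lower, shares below the 24.3% and 39.7% of all genes: Il18 rose from 11.1 and 8.76 to 49.8 and 82.5 FPKM and Il1a from 29.4 and 35.4 to 139 and 95.02, while interferon gamma (Ifng, 26.5 and 37.7 then 0.109 and 0.665) and lymphotoxin beta (Ltb, 319.5 and 310.3 then 17.1 and 20.8) fell. Il1b had 166 and 151 then 215 and 118 FPKM and Tnf 9.56 and 6.91 then 21.5 and 12.1, neither called. Without normal 1, 5 chemokine genes were called higher, among them Ccl2, Ccl7 and Cxcl2, and 0 cytokine genes higher and 5 lower.

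Some sensor genes rose and some interferon response genes fell. In the Toll-like receptor list 8 of 15 genes were higher and 0 lower, such as Cd14, the coreceptor for bacterial lipopolysaccharide (14.9 and 20.97 then 127 and 119.6 FPKM), and Tlr2 (20.4 and 16.5 then 70.9 and 70.8). In the interferon response list 11 of 22 were lower and 0 higher (median change -0.99), for example the guanosine triphosphatase Igtp (122 and 149 then 15.1 and 19.4). Among the 13 low in hepatocytes 5 were lower (median change -0.44), a share near the 42.9% of all such genes. Without normal 1, 2 Toll-like receptor genes and 1 interferon gene were called.

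Mitosis genes were lower in the blood sort. All 20 mitosis genes were lower (median change -2.61), with Birc5 at 37.1 and 28.6 then 1.38 and 2.6 FPKM, Ccna2 at 28.03 and 30.04 then 4.0 and 5.01 and Top2a at 33.3 and 35.6 then 1.25 and 7.17. In the S phase list 7 of 20 were lower and 2 higher (median change -0.69), a smaller share than the 39.7% of all tested genes that were lower and the 24.3% that were higher. The replicative helicase gene Mcm6 was one of the lower members (102 and 113 then 32.2 and 62.6). The replication clamp gene Pcna was one of the higher members (29.1 and 29.1 then 56.1 and 77.3), and PH 2 was above PH 1 in both genes. Without PH 2, 15 S phase genes were lower, and without either normal library, 0. Immediate early genes, which respond within minutes to stress or dissociation, were higher for 10 of 21 and lower for 2: Fos had 48.7 and 72.7 then 203 and 163 FPKM and Fosb 0.555 and 0.369 then 8.77 and 9.06, while Btg2 had 255 and 258 then 62.3 and 58.02. Of all tested genes 24.3% were higher and 39.7% lower. Among the 10 immediate early genes low in hepatocytes, 5 were higher and 1 lower. Without normal 1 the mitosis list had 5 lower genes and the immediate early list 1 higher gene. Ribosomal protein genes were higher for 13 of 19 and lower for 3, but 15 of the 19 exceed 10 FPKM in hepatocytes, and of the 4 that do not, 0 were higher and 3 lower.

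The genes with the largest changes were taken among those under 10 FPKM in both hepatocyte groups, which leaves out Hmox1 (change 6.59). After Marco, the largest rises were Cmklr1, the receptor for chemerin (0.484 and 0.395 then 92.4 and 152 FPKM, change 6.38 ± 0.28), the scaffold gene Sash1 (0.178 and 0.226 then 83.5 and 65.6), Armcx4 (0.606 and 0.477 then 119 and 52.7), the integrin-linked Parvb (0.272 and 0.354 then 63.4 and 53.01) and the peptide transporter Slc15a3 (6.11 and 5.89 then 255 and 374). Sdc3, Inhbb, Bak1 and Itga9 completed the 10, with changes of 5.47, 5.43, 5.38 and 5.21. Inhbb, an activin subunit, was uneven, at 191 and 28.8 FPKM in the PH libraries, and lost its call without either normal library. The largest falls after Ngp were Nkg7, Fasl, Camp, the chemokine receptor Cxcr6 of liver-resident lymphocytes (594 and 743 then 6.65 and 12.97 FPKM, change -6.01 ± 0.33), Gzmb, Ms4a4b, Ltf, Jchain and Gzma. Of the 10 falls, 3 are neutrophil granule genes, and 6 are lymphocyte or NK genes on the lists or, like Cxcr6, known from such cells, besides the plasma cell gene Jchain. Except for Inhbb, each of the 20 genes kept its call without any single library.

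The sort in which each strongly raised gene stood highest was then counted, without hepatocytes and as a description. Of 68 genes higher by at least 4, 27 (39.7%) were highest in PH KC and 24 (35.3%) in PH LSEC among the 8 other PH sorts. Over all 8492 tested genes low in hepatocytes these shares were 21.9% and 9.51%. The PH blood mean was above all 8 for 10 of the 68 (14.7%), against 9.59% of the 8492 genes.

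The KC sort gave the nearest comparison. Over the 8492 genes, log2(FPKM + 1) of PH 1 and PH 2 correlated with the mean of normal KC at 0.899 and 0.922 and of PH KC at 0.785 and 0.889, and that of normal 1 and 2 with normal KC at 0.501 and 0.525, as a description over genes that share libraries and gene lengths. The sinusoidal endothelial list summed to 6419 FPKM in normal KC and 790 in PH KC, against 8597 and 4050 in PH blood. The part of these genes in the likeness to normal KC was not tested. Other genes that differ between normal and PH KC gave no single order. On the log scale PH blood stood nearer to PH KC in Marco, which averaged 338 FPKM in normal KC and 7179.9 in PH KC and had 2823 and 4759 in PH blood, and in Cd74, at 4408, 720.5 and then 699.9 and 876. It stood nearer to normal KC in the S phase list, whose sum was 278 FPKM in normal KC, 1582 in PH KC and 310.2 and 575 in PH blood. Cxcl2 was likewise nearer to normal KC, at 147, 12.8 and then 89.02 and 77.1. These genes were chosen after their values were seen.

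Whether the change after PH differed between the blood and KC sorts was tested directly, as the difference of the 2 changes in a fit of 9 libraries (2 normal KC and 3 PH KC besides the 4). Of 13198 genes tested, 7907 (59.9%) differed, 3275 (24.8%) with a higher and 4632 (35.1%) with a lower change in blood, and the median difference was -0.36. In the KC sort alone 4833 genes (36.6%) changed in that fit, 2205 (16.7%) higher and 2628 (19.9%) lower. Among genes tested in both fits, 986 were higher in blood and lower in KC, 549 lower in blood and higher in KC, 580 higher in both and 756 lower in both. Of 20 Kupffer genes, 19 had a higher change in blood than in KC and 1 a lower one, with a median difference of 3.21. The list's own median change in KC was 0.43, with 4 genes called higher and 1 lower there. Marco rose in both, by 8.59 in blood and 4.40 in KC, and the difference was 4.19 ± 0.49 (adjusted p = 0.000298). All 17 sinusoidal endothelial genes differed upward, with a median difference of 5.54. Of them 15 were called higher after PH in blood and 15 lower in KC (median change -3.26 in KC). Clec4g, for example, averaged 1589 FPKM in normal KC and 169 in PH KC.

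The smallest adjusted p in the upward direction belonged to Marcks, Sash1, Maf, Zswim6 and Slc30a1, with differences of 4.50, 6.62, 6.06, 4.26 and 4.10 (adjusted p = 2.38e-05 for each). Downward it belonged to the NK receptor genes Klra9, Klra8, Klra21, Klra18 and Klra4, near-identical copies that KC libraries hardly held. In the NK list all 22 genes differed downward (Ncr1 by -5.43), as did 24 of 25 T cell genes. Immediate early genes differed upward for 17 of 21 and 0 downward, and 20 of the 21 were lower after PH in KC: Fos averaged 906 FPKM in normal KC and 76.7 in PH KC. S phase genes differed downward for 13 of 20, with Mcm6 at 23.1 in normal KC and 179.9 in PH KC and a difference of -3.78 (adjusted p = 0.014), a call that was lost without normal 2 or without PH 1. The 2 sorts share no libraries. The count of differing genes was 6459 without normal 1 and 8981 without library 3 of PH KC.

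**Figure D5:**
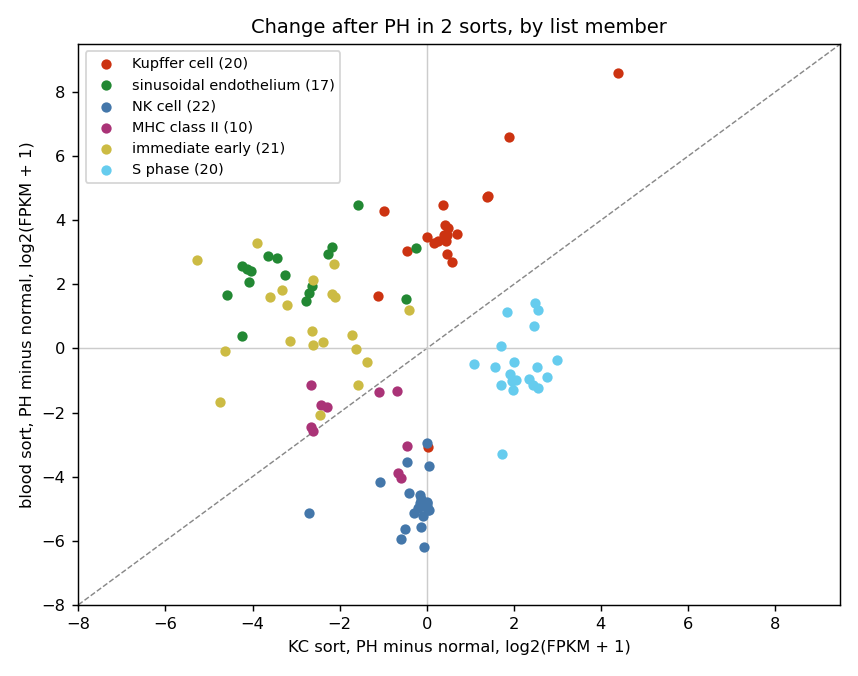
Change after PH in the KC sort (x axis) and in the blood sort (y axis), both as differences of log2(FPKM + 1), for members of 6 lists; the dashed line marks equal change. Kupffer genes but 1 and sinusoidal endothelial genes lie above the line, NK genes lie at -6.18 to -2.95 on the y axis, and S phase genes lie below the line.

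The level after PH was compared between blood and KC in the same fit. Of 13198 genes, 3220 (24.4%) differed, 2500 (18.9%) higher and 720 (5.46%) lower in blood. In the Kupffer list 10 of 20 genes were lower in PH blood than in PH KC and 1 higher, with a median difference of -0.95, and in the macrophage list 10 of 19 lower and 1 higher. The endothelial lists were higher in PH blood, in 16 of 17 sinusoidal and 17 of 18 general genes. The neutrophil list was higher for 15 of 22 and lower for 1, and the monocyte list higher for 10 of 14 and lower for 2. This count depended on single libraries: 1548 genes differed without PH 1 of blood and 5441 without library 3 of PH KC.

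Some transcripts were at their highest, after PH, in the blood sort. Among genes low in hepatocytes and called in blood, 220 exceeded in both PH blood libraries every library of the 8 other PH sorts, 199 of them lower than in normal blood and 21 higher. Predicted genes, pseudogenes and small RNAs were left out of this count. Before that step 5660 such genes were called, 3645 lower and 2015 higher. By group mean, PH blood was above all 8 sorts for 12.8% of these 3645 and 7.89% of these 2015 genes, against 9.59% of all 8492 tested. Among the 220, the lower ones include genes of the neutrophil and monocyte lists, such as Retnlg, S100a8, Mmp9 and Ccr2. Retnlg stood at 177 and 111 FPKM against 9.97 in the highest other PH library, and Ccr2 at 31.3 and 36.2 against 5.51. The higher ones include chemokine and lectin genes of activated myeloid cells: Cxcl2 at 89.02 and 77.1 against 30.2, Cxcl3 at 9.26 and 35.5 against 2.76, from 0.404 and 0.569 in normal blood, and the lectin Clec4d at 52.2 and 30.7 against 21.3. These genes were chosen after their values were seen, and the calls of Cxcl3 and Clec4d did not hold in all 4 fits that left out a library.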

How the data were processed

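The authors deposited 1 table of FPKM for 55 libraries, and per the submitters' processing notes mm9, CASAVA 1.8.2 and Bowtie 1.0.0 were used, in roles not given in the sources used here. Each of 24478 symbols was represented by its row of highest mean over all libraries (36141 rows). Values were log2(FPKM + 1), and genes with at least 1 FPKM in at least 2 of the fitted libraries were tested with limma 3.58.1 (R 4.3.3, trend and robust, two-sided, Benjamini-Hochberg over all tested genes, threshold 0.05). FPKM do not hold read depth, so no count model or counting interval was used. Samples were grouped by title; 1 library of the clonal biliary sort is titled PH where another label field reads normal, and it enters only the counts over 8 other PH sorts and the fit of all groups. Many hepatocyte genes stood at exactly 0 outside hepatocytes, so genes with 10 FPKM or more in either hepatocyte group were kept out of the choice of named genes (of the genes given, Hmox1, Cd5l, Lamp1, Igtp, Il18, Fos, Btg2, Mcm6, Pcna, Spp1 and Top2a exceed it).

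The members and the 30 gene lists were chosen with earlier results of these data known. Genes were named by rule: the 5 markers, the 4 most abundant tested members of each list, the 10 largest rises and falls that were called, changed by at least 1 and did not overlap, and the 5 smallest adjusted p in each direction for the difference from KC. Other list members given with values were chosen after their values were seen. The level of list members relative to a marked sort used members with at least 10 FPKM there. Tested on simulated data in which 200 genes had a log2 change of 2, limma recovered 114 (blood comparison, 12415 genes), 152 (difference from KC, 12469) and 176 (PH blood against PH KC, 12452). Of the unchanged genes it called 3, 5 and 18. Far more genes were called in the data (8199 in blood), so these values do not give the power or error of the reported calls. Alternatives were another pseudocount, no filter, quantile and upper-quartile scaling, the mean over a symbol's rows, 1 fit of all 20 groups, a replicate block, genes low in hepatocytes and leaving out each library. Members under 1 FPKM in every KC library were added after seeing the data. Some list members are not reported here. Promoters were read from RefSeq, and figures were drawn with matplotlib 3.10.9 (Python 3.11.15).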

Additional observations from a re-analysis of the deposited data

Results flagged for a closer look

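The change after PH differed between the blood and KC sorts by a test of the difference itself for 7907 of 13198 genes. For Marco the change was larger in blood than in KC by 4.19 on the log2 scale. Among the lists, the change was higher in blood for 19 of 20 Kupffer genes and for 17 of 17 sinusoidal endothelial genes. Of all genes tested, 24.8% had a higher change in blood. The endothelial difference rests on both sorts, since 15 of the 17 genes were higher after PH in blood and 15 were lower in KC (median change -3.26 in KC).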

How the results depend on the processing

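Direction held throughout for the T, NK, B, Kupffer, macrophage and sinusoidal endothelial medians, while counts of calls depended on the normal libraries. Leaving out each library in turn gave 1262 (without normal 1) to 8683 genes called in blood (521 to 3357 higher, 741 to 5326 lower), 2 to 19 B cell and 6 to 15 neutrophil genes lower, and 6 to 19 Kupffer, 7 to 18 macrophage and 1 to 17 sinusoidal endothelial genes higher. In the same fits the medians ranged from -0.90 to 0.047 for the erythroid list and from -0.079 to 0.38 for the cytokine list, and the changes of single genes from -0.49 to 0.079 for F13a1, -0.83 to 0.73 for Hbb-bs, -0.43 to 0.44 for Il1b and -0.35 to 0.43 for Il1r2. PH blood against PH KC gave 1548 to 5441 genes (1467 to 2998 higher, 81 to 2443 lower). Of those lower, there were 326 in 1 fit of all groups, 348 among genes low in hepatocytes, 444 with no filter, 2236 after quantile normalization and 1384 after upper-quartile scaling. Only genes low in hepatocytes gave 2020 higher in blood, 5185 differing from KC (2823 lower), 12 higher Kupffer genes, since fewer genes were tested, and a ribosomal median of -0.58. The T cell median was -4.95 with a pseudocount of 0.1, the monocyte median -0.63 after upper-quartile scaling and the platelet median -0.0705 with no filter. Neutrophil genes under 1 FPKM in every KC library gave 5 lower, median -2.29. Sign changes of genes that were not called were 0.021 for F13a1 and 0.17 for Hbb-bs after upper-quartile scaling, and 0.14 for Hbb-bs, -0.028 for Il1b and -0.18 for Lyz2 after quantile normalization. Apart from fewer genes or samples, the cause was not tested. Unknown depth limits the low values.

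The deviations of same-numbered normal and PH blood libraries from their group means correlated at -0.048 over 12819 genes. With 2 libraries in each group the other pairing gives the same value with the opposite sign, 0.048. This value therefore cannot tell whether same-numbered libraries share more than a number. With the replicate block 7667 genes were called in blood, and 4909 (2141 lower) in PH blood against PH KC.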
